A study of Homo sapiens with 6 samples.

Results

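The 10 genes described here are the alpha- and beta-tubulin isotypes TUBB, TUBB2A, TUBB2B, TUBB3, TUBB4A, TUBB4B, TUBB6, TUBA1A, TUBA1B and TUBA1C, taken by gene symbol from the authors' merged count table, out of 58037 gene IDs counted per library. The cells were OVCAR8, a long-established line derived from human ovarian carcinoma. All cells were plated in RPMI with 10% serum, moved 24 hours later to serum-free RPMI, and kept there for 16 hours before the treatment period. 3 libraries (replicates 2 to 4) came from cells left untreated, and 3 (replicates 1 to 3) from cells given recombinant human relaxin-2 (RLN2), a peptide hormone, at 50 ng/mL for 8 hours. Total RNA was sequenced with a stranded kit, and 11939148 to 22426768 reads per library were assigned to genes. Treatment was in triplicate in 1 cell line according to the labels, which name no separate passages or days, and the spread that p-values rest on may therefore be technical.

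Microtubules are polymers of heterodimers of alpha- and beta-tubulin. Vertebrates encode several isotypes of each, which differ mostly in the acidic carboxy-terminal tail that motor proteins and tubulin-modifying enzymes bind. Beta-tubulin is the target of taxanes, which are used against ovarian carcinoma, and the class III isotype, TUBB3, has been much studied for its link to taxane resistance. Tubulin mRNA is also under autoregulation: when free heterodimers are abundant, TTC5 recognises the first residues of nascent tubulin on the ribosome and the mRNA is degraded through the adaptor SCAPER and the CCR4-NOT deadenylase.

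Epithelial keratins and PAX8 were expressed in the libraries, with KRT18 at 15032 to 31588 reads, KRT8 at 10086 to 22309 and PAX8, a Müllerian lineage factor, at 811 to 1508. MUC16, which encodes the CA125 antigen, had 0 to 2 reads and CDH1 (E-cadherin) 14 to 25, so these markers of ovarian carcinoma were near 0. Summed markers of other cell types reached at most 18.8 CPM (reads scaled to library size with TMM factors) for fibroblasts, 4.68 for mesothelium, 2.87 for endothelium and 0.61 for leukocytes, with DCN and CD3E at 0 reads. Untreated replicate 2 stood apart in the members' data, and relaxin-2 replicate 2 had 27.0% multimapping reads against 5.31% to 6.19% in the other libraries. The members' fold changes are therefore also given without untreated replicate 2.

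The starts of the coding sequences are shown because they encode the first residues, which are recognised in autoregulation. Each line gives the first 30 coding bases of the principal transcript in GENCODE 29 (GRCh38), 5′ to 3′, with the first 4 codons in capitals. Over the 30 bases the 7 beta members had 7 different starts, with 5 different versions of the first 4 codons. TUBB shared its version with TUBB4B, and TUBB3 with TUBB6. All 5 versions encode the same residues, Met-Arg-Glu-Ile. The 3 alpha members had 1 shared start.
TUBB: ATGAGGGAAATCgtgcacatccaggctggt
TUBB2A: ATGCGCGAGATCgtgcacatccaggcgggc
TUBB2B: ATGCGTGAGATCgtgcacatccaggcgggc
TUBB3: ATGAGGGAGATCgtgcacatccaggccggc
TUBB4A: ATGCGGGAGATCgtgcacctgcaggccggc
TUBB4B: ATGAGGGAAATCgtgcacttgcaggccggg
TUBB6: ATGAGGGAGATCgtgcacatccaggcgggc
TUBA1A, TUBA1B and TUBA1C: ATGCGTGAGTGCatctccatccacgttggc

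The coding ends of the beta members are shown because they encode the tails in which the isotypes mostly differ. Each line gives the last 60 coding bases with the stop codon, from the last coding exon. Capitals mark bases that differ from TUBB in a pairwise alignment, or have no partner in it.
TUBB (chr6:30724338-30724397, plus strand): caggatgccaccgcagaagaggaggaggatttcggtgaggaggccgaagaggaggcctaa
TUBB2A (chr6:3153863-3153922, minus strand): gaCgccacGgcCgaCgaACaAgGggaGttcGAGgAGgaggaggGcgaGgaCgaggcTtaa
TUBB2B (chr6:3224751-3224810, minus strand): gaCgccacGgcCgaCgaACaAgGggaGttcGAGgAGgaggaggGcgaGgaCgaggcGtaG
TUBB3 (chr16:89935745-89935804, plus strand): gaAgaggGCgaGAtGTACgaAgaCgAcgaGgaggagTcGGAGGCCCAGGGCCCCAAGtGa
TUBB4A (chr19:6495164-6495223, minus strand): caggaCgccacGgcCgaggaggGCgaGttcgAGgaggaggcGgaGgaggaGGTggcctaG
TUBB4B (chr9:137243497-137243556, plus strand): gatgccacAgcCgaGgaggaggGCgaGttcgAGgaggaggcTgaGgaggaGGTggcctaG
TUBB6 (chr18:12326071-12326130, plus strand): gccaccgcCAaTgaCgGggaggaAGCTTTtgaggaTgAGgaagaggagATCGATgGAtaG
TUBB3 had 34 marked bases of 60, the most of the beta members, and TUBB4A and TUBB4B had 14 each. The TUBB2A and TUBB2B ends differ from each other only in the last alanine codon and the stop codon, and so encode the same tail. Over the whole coding sequence the closest pair was TUBB2A and TUBB2B, at 98.1% identity, and the 3 alpha members were 95.9% to 97.2% identical to each other.

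This likeness limits what the counts can see, since reads that map to several places were not counted. In the principal TUBB2A transcript, 60.4% of all windows of 75 bases also occur in a transcript of another gene at another locus. The share was 49.5% for TUBB2B, 48.4% for TUBA1B, 22.3% for TUBA1A and 14.0% for TUBA1C. It was 8.4% for TUBB, whose 2 sharing genes are pseudogenes, and 6.5%, 5.4% and 1.9% for TUBB3, TUBB4B and TUBB4A. TUBB6 had 0.0%, so its reads were the least ambiguous. The read length is not given in the sources used here, and with windows of 50 and 100 bases the share for TUBA1B was 62.7% and 37.2%.

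TUBB3 met a second limit. Of its principal transcript, 89.5% of the bases, and 95.8% of the coding bases, also lie in exons of AC092143.1 (ENSG00000198211), a readthrough gene on the same strand that joins MC1R to TUBB3. Reads in exons of both genes are ambiguous in this kind of counting and go to neither, and AC092143.1 itself had 0 reads in all 6 libraries. Only 106 start positions of the 1769-base transcript gave windows of 75 bases free of both limits. Over all annotated exons of TUBB3, from 15 transcripts, 35.8% of the 4430 bases are shared with AC092143.1. The TUBB3 counts can therefore come only from a small part of its principal transcript or from exons particular to its other transcripts. They are not a measure of its whole mRNA.

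**Figure D1:**
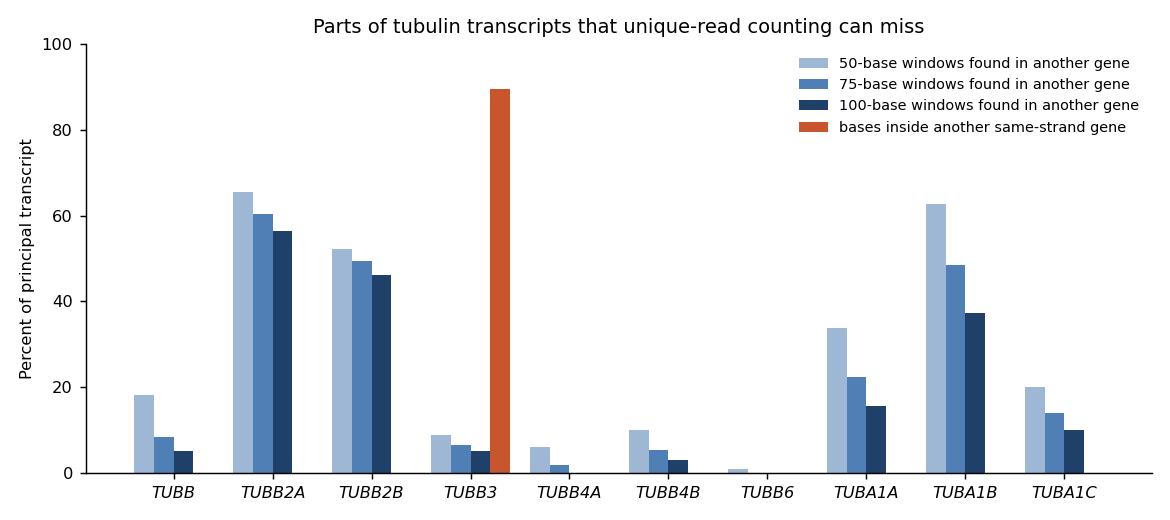
Percent of each principal tubulin transcript (y axis) whose windows of 50, 75 or 100 bases occur in a transcript of another gene (blue bars), or whose bases lie in exons of another gene on the same strand (orange bars). TUBB2A, TUBB2B and TUBA1B have the tallest blue bars, and TUBB3 alone has an orange bar, at 89.5%.

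Strand was the other condition for counting these genes. The reverse column of the count tables, used throughout, holds reads in the orientation of the mRNA. In the unstranded column TUBA1B (chromosome 12, 49127782 to 49131397, minus strand) kept 15.7% to 20.7% of its reverse-column reads, TUBA1C (chromosome 12, 49188736 to 49274603, plus strand) 36.2% to 39.7% and TUBB (chromosome 6, 30720201 to 30725426, plus strand) 65.1% to 74.0%. TUBB4B kept 69.2% to 82.8% and TUBB4A 34.5% to 69.7%. Exon bases shared with a gene on the opposite strand are annotated for these members and also for TUBB2B, TUBA1A and TUBB6, which kept 99.1% to 100%, 94.4% to 97.8% and 97.6% to 98.4%. TUBB6 (chromosome 18, 12307669 to 12344320, plus strand), which overlaps AFG3L2 on the opposite strand, had 13.2% to 15.1% as many reads in the forward column as in the reverse column.

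Levels of the members were compared as CPM per kilobase of annotated exon. TUBB, the main beta isotype of dividing cells, was the highest, with 408 ± 53.5 CPM per kb (mean ± SD over 6 libraries), above 99.8% of tested genes. TUBA1B, the main alpha isotype of most cells, followed with 236 ± 25.8, and their ranges did not overlap. TUBB6 (98.9 ± 10.0) and TUBB4B (96.4 ± 23.8) could not be ordered per exon base, since TUBB6 was the higher in only 2 of 6 libraries. TUBA1C had 75.9 ± 10.2 and TUBA1A 53.5 ± 4.64, and although their ranges met, TUBA1C was the higher in 6 of 6 libraries. TUBB2B (27.3 ± 3.39) lay above TUBB2A (25.2 ± 3.88) in 6 of 6 libraries per exon base, with overlapping ranges.

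TUBB4A, an isotype of the nervous system, and TUBB3, the isotype used as a marker of neurons, were the lowest, at 0.53 ± 0.14 and 0.39 ± 0.08 CPM per kb, with the limit on TUBB3 given above. Of 8 neuronal marker genes 4 were tested, NEFM and ELAVL4 had 0 reads, and the list summed to 23.4 to 29.2 CPM, most of it SYT1. The order depends on the length used. TUBB6 was above TUBB4B per base of the principal transcript (197 against 124 CPM per kb), and TUBB2A above TUBB2B per uncontested window of 75 bases (72.0 against 60.9) and per mean transcript length (36.0 against 30.4). TUBB3 was above TUBB4A per base of the principal transcript (0.97 against 0.72) and far above it per uncontested window of 75 bases (16.3 against 0.76). The TUBB3 value per window rests on only 106 start positions. For the lengths by principal transcript and by window, the reads were still those of all exons of each gene. Reads and length thus cover different regions, and values per window are not reads per uncontested base. Per base of the principal transcript TUBA1B (518 CPM per kb) and TUBB (514) were level, and per uncontested window of 75 bases TUBA1B had 1052 and TUBB 577.

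No member passed the test for a difference after relaxin-2. The question was whether 8 hours of the hormone changes the abundance of tubulin mRNA, and all 10 members were tested. Of the 10, 0 passed at an adjusted p of 0.05 in edgeR's quasi-likelihood test (lowest adjusted p = 0.408 by the Benjamini-Hochberg method), as did 0 of 16740 tested genes (0%). At an unadjusted p under 0.05 there were 2 of 10 members, both higher, against 6.3% of tested genes on that side, 4.52% on the lower side and 10.8% on either. DESeq2 and limma-voom also called 0 members and 0 genes. The 2 members at an unadjusted p under 0.05 became 0 without relaxin-2 replicate 2 or replicate 3. The count was 4 without untreated replicate 3 and 5 without untreated replicate 4. The share of all tested genes at that p is not given for these refits, so their counts cannot be set against it. All 10 members had a fitted log2 fold change above 0, where 47.8% of tested genes did, with a median of 0.24 against -0.02 over all tested genes. In bulk RNA, a change in the cells that express a gene and a change in RNA per cell cannot be told apart.

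TUBB had 1058, 1316 and 1348 CPM in untreated replicates 2, 3 and 4, and 1432, 1549 and 1528 CPM in relaxin-2 replicates 1, 2 and 3. The relaxin-2 libraries all lay above the untreated ones, and untreated replicate 2 was the lowest. The fitted log2 fold change of TUBB was 0.28 ± 0.11 (SE), a fold of 1.21 with a 95% interval of 1.02 to 1.43 (unadjusted p = 0.0309, adjusted p = 0.408, edgeR). Without untreated replicate 2 it was 0.17.

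TUBB4B (chromosome 9, 137241213 to 137243707, plus strand), a beta isotype of most tissues and cilia, had the largest fitted difference with all 6 libraries. It did not under every alternative. TUBB3 was above it with a surrogate variable and without untreated replicate 2, untreated replicate 3, relaxin-2 replicate 2 or both libraries numbered 2. TUBA1C and TUBB were above it with the offsets for GC content and length. The untreated libraries of TUBB4B had 117, 188 and 202 CPM, and its relaxin-2 libraries 214, 264 and 236 CPM (replicates in the same order). The groups did not overlap, but the gap between untreated replicate 4 and relaxin-2 replicate 1 was small beside the distance of untreated replicate 2 from the rest. The log2 fold change of TUBB4B was 0.50 ± 0.19, a fold of 1.41 with a 95% interval of 1.04 to 1.91 (edgeR, unadjusted p = 0.0313, adjusted p = 0.408). It was 0.29 without untreated replicate 2. With no filter on low counts TUBB4B passed edgeR's test (adjusted p = 0.0489), in a fit that called 120 genes in all. The share of tested genes called in that fit is not given. Under the other alternatives, DESeq2 and limma-voom included, the adjusted p of TUBB4B was 0.169 to 0.766.

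TUBB6, the class V beta isotype, was at 334, 412 and 393 CPM in untreated libraries and at 416, 453 and 436 CPM in relaxin-2 libraries, again without overlap, though untreated replicate 3 and relaxin-2 replicate 1 were nearly level. Its log2 fold change was 0.19 ± 0.09, and 0.11 without untreated replicate 2. TUBB2A (chromosome 6, 3153669 to 3157526, minus strand) and TUBB2B (chromosome 6, 3224261 to 3231730, minus strand), neighbouring class II genes, had log2 fold changes of 0.25 ± 0.15 and 0.22 ± 0.12, which were 0.085 and 0.10 without untreated replicate 2. In TUBB2A the untreated libraries had 30.4, 45.2 and 43.8 CPM and the relaxin-2 libraries 45.6, 45.8 and 49.9, so that 5 of the 6 values lay close together and untreated replicate 2 lay below them. TUBB2B showed the same arrangement, from 45.4 to 61.0 CPM untreated and 63.0 to 65.9 CPM after relaxin-2.

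Of the 3 alpha members, TUBA1A had the smallest fitted difference of all 10 members. TUBA1B had 668, 827 and 861 CPM in the untreated libraries and 869, 901 and 928 CPM in the relaxin-2 libraries, and its log2 fold change was 0.20 ± 0.10. Untreated replicate 4 and relaxin-2 replicate 1 were nearly level, and the groups just failed to meet. TUBA1C ranged from 260 to 361 CPM untreated and from 371 to 392 CPM after relaxin-2 (0.24 ± 0.12). In TUBA1A (chromosome 12, 49184796 to 49189324, minus strand), an alpha isotype of developing neurons, the groups overlapped, with 153 to 193 CPM and 185 to 199 CPM (0.12 ± 0.09). Without untreated replicate 2 the log2 fold changes were 0.091 for TUBA1B, 0.10 for TUBA1C and 0.028 for TUBA1A, and without untreated replicate 4 that of TUBA1A was 0.19.

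The members with few reads were the least certain. TUBB3 (chromosome 16, 89921392 to 89938761, plus strand) had 28, 40 and 23 reads untreated and 39, 21 and 44 after relaxin-2, and its groups did not overlap once scaled (1.26 to 1.76 against 1.83 to 2.17 CPM). Its log2 fold change was 0.47 ± 0.21, with a 95% interval of the fold from 0.99 to 1.93, and 0.37 without untreated replicate 2. TUBB4A (chromosome 19, 6494319 to 6502848, minus strand) had 24 to 53 reads per library, overlapping groups and a log2 fold change of 0.27 ± 0.29, which depended on single libraries. Leaving out untreated replicate 2, 3 or 4 gave 0.13, 0.17 or 0.54, and leaving out relaxin-2 replicate 1 or 3 gave 0.45 or 0.084. For TUBB4A a fold anywhere from 0.77 to 1.91 lay within the 95% interval, so the direction of its difference is not settled.

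**Figure D2:**
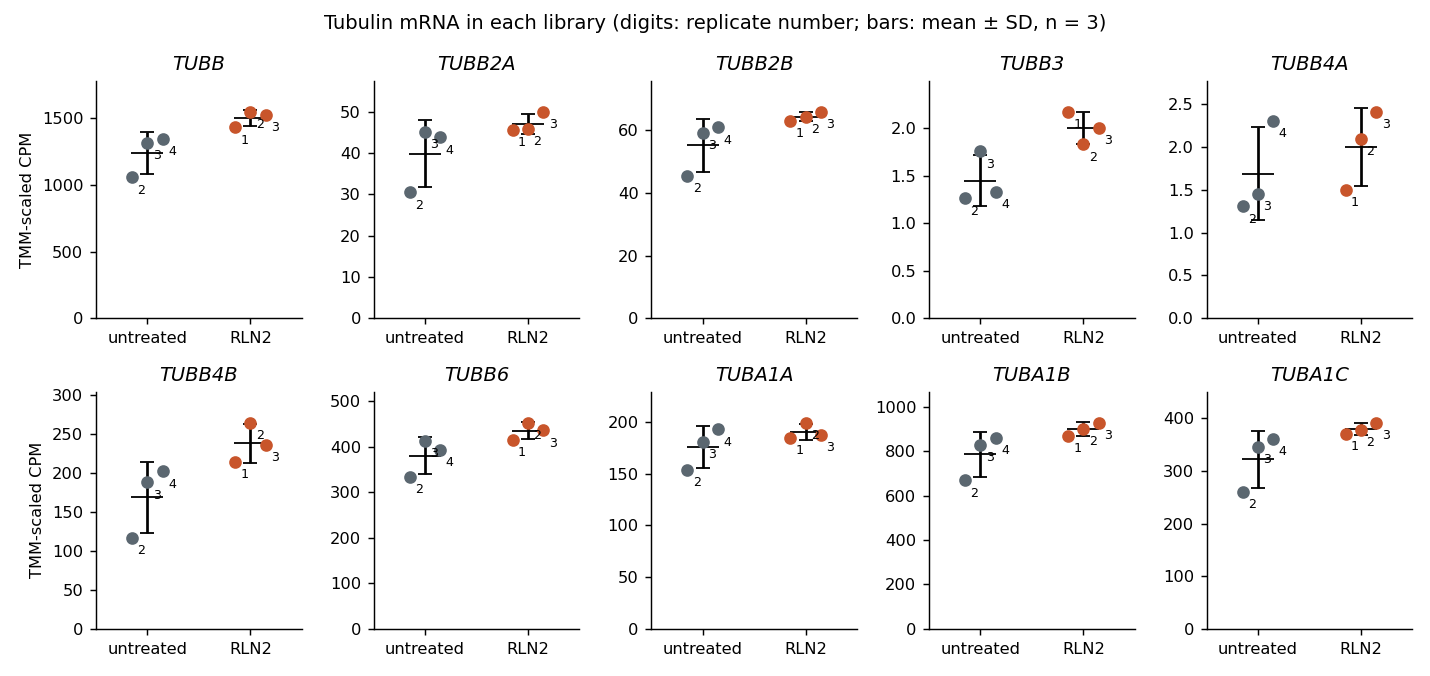
TMM-scaled CPM of the 10 tubulin genes (y axes from 0) in the 3 untreated and 3 relaxin-2 (RLN2) libraries, each point 1 library with its replicate number, and bars the mean ± SD. In 8 of the 10 panels the RLN2 points lie above all untreated points, and untreated replicate 2 is the lowest point in each of those.

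In 8 of 10 members all relaxin-2 libraries lay above all untreated ones, TUBB4A and TUBA1A being the exceptions, where 10.8% of tested genes did so. The reverse arrangement held for 0 of 10 members and 10.5% of tested genes, and either for 8 of 10 and 21.4%. Without untreated replicate 2 the count was also 8 of 10, against 12.7% of tested genes. The reverse arrangement then held for 0 of 10 members and 13.9% of tested genes. The median log2 fold change of the members, however, went from 0.24 to 0.11. Members share libraries, so these counts are not independent observations. Expressed as log2 deviations from each gene's own mean, the members' median was -0.36 in untreated replicate 2, where 0 of 10 members were above their mean. It was -0.01 and 0.04 in untreated replicates 3 and 4, and 0.08, 0.12 and 0.17 in relaxin-2 replicates 1, 2 and 3. Untreated replicate 2 was thus farther from the other untreated libraries than these were from the relaxin-2 libraries.

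**Figure D3:**
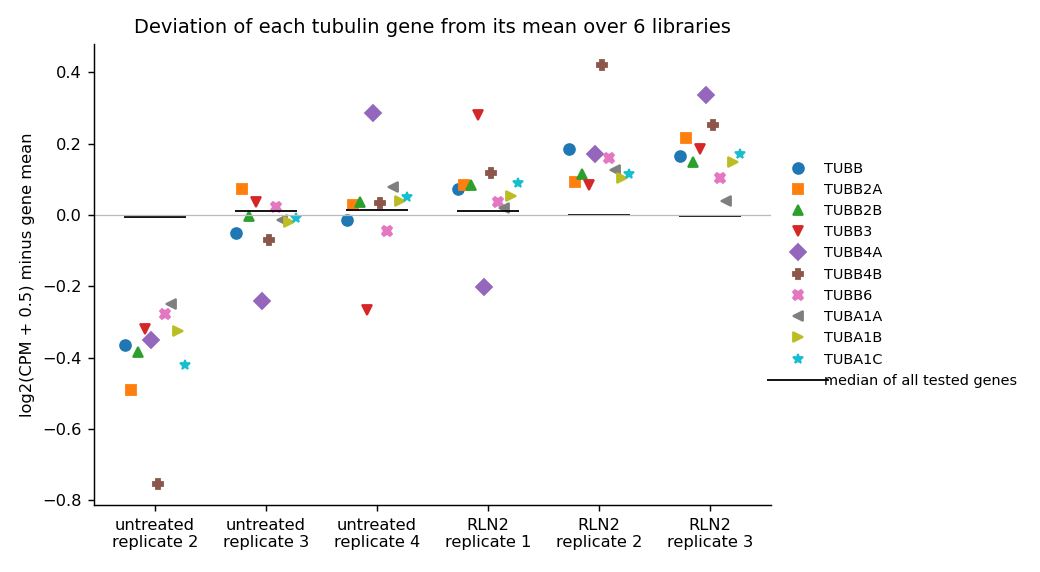
Deviation of each tubulin gene from its mean over the 6 libraries, in log2(CPM + 0.5) (y axis), by library, with a black bar for the median of all tested genes. All 10 genes lie below 0 in untreated replicate 2 and all 10 above 0 in relaxin-2 (RLN2) replicates 2 and 3, while the black bars stay near 0.

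GC content moved with this arrangement across the whole table. The transcripts of the members had 51.5% to 63.5% GC, all 10 above the median of tested genes (48.7%). Among tested genes in the upper tercile of GC (53.2% to 74.2%), which held 7 members, the median log2 fold change was 0.33 and 25.5% had all relaxin-2 libraries above all untreated ones. In the middle tercile, which held the other 3 members, these values were -0.03 and 6.44%. Without untreated replicate 2 the median log2 fold changes were 0.159 in the upper tercile and -0.025 in the middle tercile. The upper tercile's median deviation was -0.51 in untreated replicate 2 and 0.27 and 0.20 in relaxin-2 replicates 2 and 3. With offsets that remove each library's trend on GC content and length, 5 of 10 members were above 0, with a median log2 fold change of 0.02 and a range from -0.25 (TUBB4A) to 0.20 (TUBA1C), TUBB at 0.19 and TUBB4B at 0.14. With 1 surrogate variable as covariate, 8 of 10 were above 0, with a median of 0.04.

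**Figure D4:**
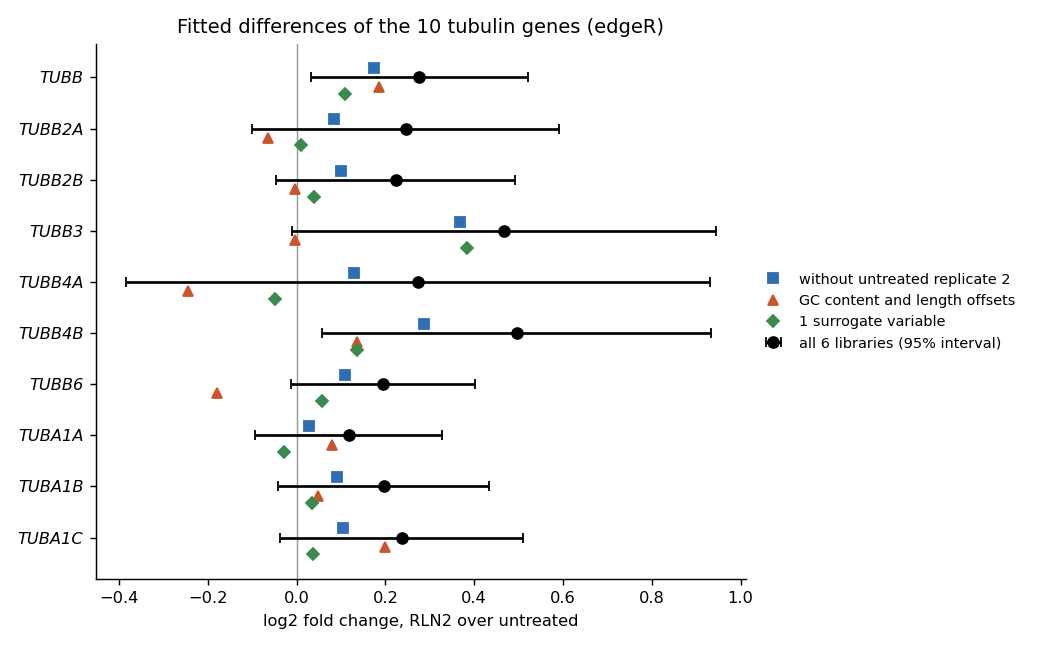
Log2 fold change of each tubulin gene (x axis, RLN2 over untreated) from edgeR, with 95% intervals for all 6 libraries (black) and point values without untreated replicate 2 (squares), with offsets for GC content and length (triangles), and with a surrogate variable (diamonds). The black points all lie above 0, and the coloured points lie nearer to 0 in most rows; with the offsets 5 genes lie below 0.

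Added together per kilobase, the 10 members came to 931 ± 133 CPM per kb untreated and 1113 ± 44.5 CPM per kb after relaxin-2 (mean ± SD, n = 3). The libraries had 779, 994 and 1022 CPM per kb untreated and 1062, 1145 and 1132 CPM per kb after relaxin-2, without overlap. The difference in mean log2 was 0.27 (exact two-sided permutation test over 20 assignments, p = 0.1, the smallest that 3 against 3 libraries can give). It was 0.14 without untreated replicate 2. As a share of all gene reads, the members held 0.268% in untreated replicate 2 and 0.343% to 0.384% in the other 5 libraries.

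Shares within the tubulin pool do not depend on library scaling, but the offsets for GC content and length were not applied to them. Transcript GC was 51.5% to 54.2% in the alpha members and 52.5% (TUBB) to 63.5% (TUBB4A) in the beta members. Its part in the shares was not tested. The alpha members made up 37.0%, 36.1% and 36.7% of the pool in the untreated libraries and 35.5%, 34.2% and 35.3% in the relaxin-2 libraries. The groups did not overlap, with a difference of -1.61 percentage points (exact two-sided permutation p = 0.1, the smallest possible) and -1.41 without untreated replicate 2. The share itself rests on the lengths used, from 36.6% untreated per exon base to 56.1% per uncontested window.

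Among beta isotypes TUBB held 61.2% to 64.2% in every library. TUBB4B went from 13.4 ± 1.85% untreated to 15.6 ± 0.95% after relaxin-2, with 11.3% in untreated replicate 2, and untreated replicate 4 and relaxin-2 replicate 1 were both at 14.8%. TUBB6 held 15.7 ± 0.90% and 14.6 ± 0.14%, and TUBB2B 4.26 ± 0.04% and 4.07 ± 0.15%, both without overlap and both lower after relaxin-2. TUBB2A held 3.52% to 4.12% and TUBB4A 0.063% to 0.103%, with overlapping groups. TUBB3 held 0.056% untreated and 0.063% after relaxin-2, a difference of 0.0071 percentage points (exact two-sided permutation p = 0.5), and 0.189 percentage points when its few uncontested windows were used as its length. Within the alpha members TUBA1B held 64.2% to 65.1%, the most even share of the 3, TUBA1C 19.5% to 21.2% and TUBA1A 13.7% to 15.6%, all with overlapping groups.

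**Figure D5:**
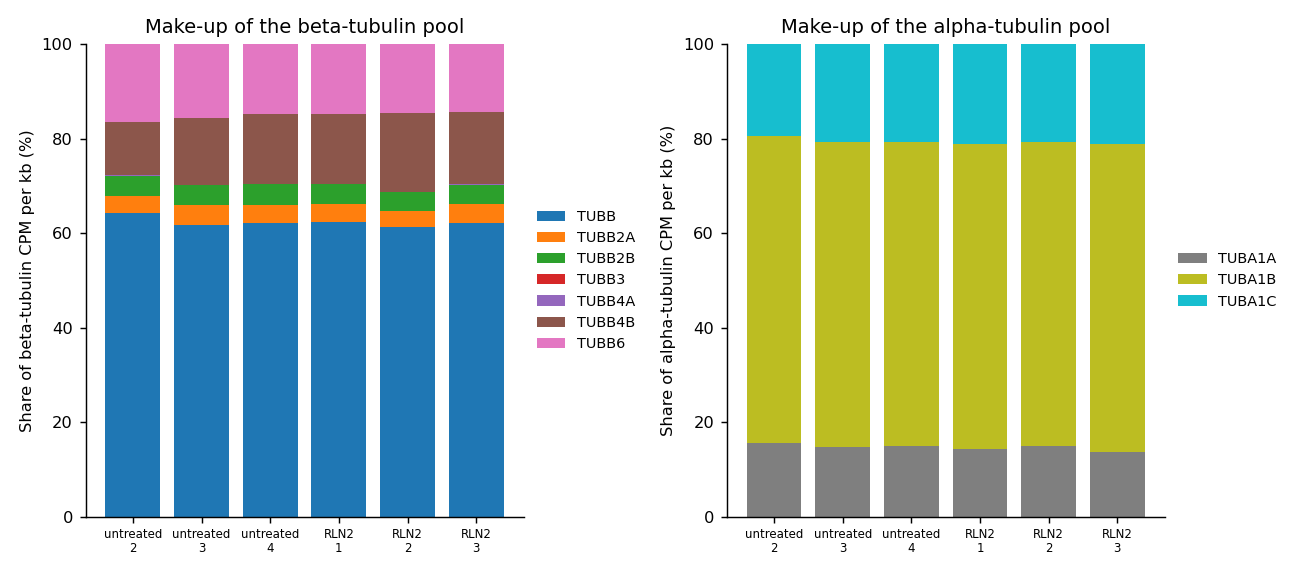
Share of each isotype in the summed CPM per kb of the 7 beta (left) and 3 alpha (right) tubulin genes (y axis, percent), 1 bar per library. TUBB fills 61.2% to 64.2% of every beta bar and TUBA1B 64.2% to 65.1% of every alpha bar, while the TUBB4B segment is narrowest in untreated replicate 2.

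The promoters are shown for TUBB4B, which had the largest fitted difference with all 6 libraries, and for TUBB2A, the only member with a full cAMP response element (CRE) in the searched window, since relaxin receptors are known to signal through cAMP. Each line gives bases upstream of the RefSeq start (GRCh38.p14), 5′ to 3′ on the gene's strand, 250 for TUBB2A and 176 for TUBB4B, which stops where the GENCODE gene begins. Capitals mark the CCAAT box, the GC box (GGGCGG), the TATA box (TATAAA) and the core of the CRE (TGACG), on either strand.
TUBB4B (chr9:137241037-137241212, plus strand): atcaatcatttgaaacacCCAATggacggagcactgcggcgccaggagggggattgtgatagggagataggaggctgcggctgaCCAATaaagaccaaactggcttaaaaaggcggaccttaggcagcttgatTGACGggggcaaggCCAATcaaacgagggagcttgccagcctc
TUBB2A (chr6:3157545-3157794, minus strand): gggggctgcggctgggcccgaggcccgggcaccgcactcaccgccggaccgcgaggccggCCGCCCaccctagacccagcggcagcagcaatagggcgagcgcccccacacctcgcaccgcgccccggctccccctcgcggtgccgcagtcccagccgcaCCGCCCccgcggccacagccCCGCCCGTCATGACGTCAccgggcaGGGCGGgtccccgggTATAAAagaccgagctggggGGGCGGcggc
The search covered 250 bases before and 50 after each RefSeq start, and all 10 members matched, with 16 windows in all. CCAAT was present in 10 of these 16 windows, from 8 members and 3 times in TUBB4B, and in 34.6% of all 35116 RefSeq windows. GGGCGG was present in 10 of 16 windows, from 8 members, and in 45.0% of all windows. TATAAA was present in 1 of 16, that of TUBB2A, and in 11.5% of all windows. The full CRE, TGACGTCA, which contains the core on both strands, began 60 bases upstream of the TUBB2A start and was found in 1.8% of windows. The core TGACG was present in 5 of 16 windows, from 5 members, and in 24.6% of all windows.

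The genes whose library profiles lay nearest to those of the main isotypes, by root mean square difference of the log2 deviations over 6 libraries among 5961 abundant genes, were MFN2 (0.0197), STEAP3 (0.0215) and GNAS (0.0238) for TUBB, and PSMD4 (0.015), SNU13 (0.0176) and DYNC1H1 (0.0195) for TUBA1B. Among the members, TUBB2B and TUBA1C, from different families, were the closest pair (0.018) and TUBB3 and TUBB4A, both with few reads, the farthest (0.328). Such profiles share the libraries and their differences in depth and GC content.

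Of the other tubulin genes 5 of 13 were tested and 0 passed. TUBG1, the gamma-tubulin of the centrosome, had a log2 fold change of 0.38 ± 0.17, and TUBE1, the epsilon-tubulin of centrioles, -0.22 ± 0.12. TUBA4A had 391 to 728 reads per library, while TUBA3C, TUBA3D and TUBA3E had 0 reads.

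Prefoldin and the CCT chaperonin fold new tubulin, and of their 14 genes 5 were fitted higher and 9 lower after relaxin-2, with a median of -0.08, and 0 passed. CCT2, a chaperonin subunit, averaged 460 ± 25.4 CPM without the hormone and 406 ± 13.8 CPM with it (-0.18 ± 0.07), and PFDN2, a prefoldin subunit, 0.21 ± 0.09. Of 7 tubulin cofactor genes, their regulator ARL2 included, 4 were higher and 3 lower (median 0.21), with TBCD at 0.33 ± 0.18 and ARL2 at 0.56 ± 0.31. In the autoregulation list 0 of 5 genes were higher and 0 passed, with SCAPER at -0.17 ± 0.09 and TTC5 at -0.17 ± 0.11.

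Genes that act on assembled microtubules also gave 0 passes. Of 10 tested microtubule-associated protein genes 7 were higher, with MAPT (tau) at 0.41 ± 0.16 and DCLK1, a doublecortin-like kinase, at -0.32 ± 0.11. Of 10 plus-end genes 6 were higher, with MAPRE3, an end-binding protein, at 0.59 ± 0.19 and CLIP2 at 0.78 ± 0.31. Of 9 severing and depolymerising genes 2 were higher, with the katanin-like KATNAL1 at -0.20 ± 0.08 and FIGN at -0.19 ± 0.10. The stathmin STMN1, which sequesters tubulin dimers, was at -0.10 ± 0.08 and STMN3 at 0.23 ± 0.29.

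In the nucleation list 4 of 10 genes were higher, led by MZT2A (0.62 ± 0.25) and MZT2B (0.57 ± 0.24), paralogous partners of the gamma-tubulin ring complex, between which the split of reads was not examined. Of 19 genes that modify tubulin tails or acetylate and deacetylate it, 9 were higher and 10 lower. The detyrosinase VASH2 averaged 2.37 ± 0.24 CPM without the hormone and 1.63 ± 0.12 CPM with it (-0.55 ± 0.18), and the polyglutamylase TTLL7 was at -0.24 ± 0.09. Of 6 proliferation markers 3 were higher and 3 lower, with PLK1 at 0.36 ± 0.15 and MCM2 at 0.38 ± 0.17. In the marker lists DCX (doublecortin, neuronal) was at 0.45 ± 0.17 and SYT1 (synaptotagmin, neuronal) at -0.12 ± 0.12. The epithelial KRT8 was at 0.47 ± 0.22 and PAX8 at 0.30 ± 0.17, and the mesothelial LRRN4 at 0.56 ± 0.19 and CALB2 at 0.14 ± 0.33. Among fibroblast markers PDGFRB was at 0.33 ± 0.22 and LUM at 0.01 ± 0.28, and among endothelial markers VWF was at 0.70 ± 0.42 and PECAM1 at 0.28 ± 0.34. Their part in the members' differences was not tested. None of these genes passed the edgeR test over all genes (adjusted p of at least 0.408).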

How the data were processed

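Counts as deposited are whole numbers of reads, in 1 table per library that holds an unstranded, a forward and a reverse column per gene; STAR and hg38 are named per the submitters' processing notes. No version of STAR and no annotation release are stated in the sources used. The authors' merged count table equalled the reverse column for all 24635 gene IDs it holds with counts. Of 58037 gene IDs 57433 matched GENCODE 29 (GRCh38), which gave exon lengths, overlaps and transcripts. Unmapped (6.73% to 17.38%), multimapping (5.31% to 26.96%), ambiguous and no-feature reads stayed out of library sizes.

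Reverse-column counts passed edgeR's expression filter at its defaults, were TMM-scaled, and were tested by the quasi-likelihood F test of edgeR 4.0.16 (R 4.3.3, limma 3.58.1), 2-sided, with Benjamini-Hochberg adjustment and a threshold of 0.05. The 95% intervals use the fit's own degrees of freedom. The test was checked on simulated counts. Sums and shares were compared by exact permutation. Alternatives included DESeq2 1.42.0, limma-voom, sva 3.50.0, spline offsets with 4 degrees of freedom, other scalings, filters, columns and lengths, and leaving out libraries. The 2 length settings by principal transcript and by uncontested window were added after seeing the data. The members and lists were chosen with earlier results of these data known. Named genes are all members, the 2 tested genes of smallest p in each other list, and the 3 nearest profiles. MUC16, CDH1, KRT18, TUBA4A and the genes at 0 reads were named after their values were seen. The coding ends of the alpha members are not reported here.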

Additional observations from a re-analysis of the deposited data

Results flagged for a closer look

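Reads in the forward column at TUBA1C, a column the comparisons do not use, were higher in every relaxin-2 library than in every untreated library. They came to 10.9 CPM on average after relaxin-2 and 7.26 CPM untreated, with 3.96 CPM in untreated replicate 2. TUBA1C shares exon bases with TUBA1A and AC125611.3 on the opposite strand, and the part these overlaps play was not tested. In the other 9 members the forward column did not separate the groups in this direction, and in TUBB2A, with 0 to 3 such reads, it separated them in the reverse direction. In the reverse column 10.8% of tested genes separated with relaxin-2 higher and 10.5% with it lower. That share is not given for the forward column, so the separation at TUBA1C is not shown to be particular to it.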

How the results depend on the processing

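No member passed an adjusted p of 0.05 under any alternative except TUBB4B with no filter on low counts, where edgeR called 1 member (TUBB4B, log2 fold change 0.496, adjusted p = 0.0489) and 120 genes in all. Over all genes, 15 were called with 1 surrogate variable, 3 without both libraries numbered 2, and 0 to 3 when 1 library was left out (3 without untreated replicate 2). Of 188 alternative values of single members, 180 kept direction and call and 7 turned negative. With the GC content and length offsets TUBB2A was -0.065, TUBB2B -0.003, TUBB3 -0.003, TUBB4A -0.245 and TUBB6 -0.179, and with 1 surrogate variable TUBB4A was -0.048 and TUBA1A -0.029. The cause was not tested. The difference in total tubulin ran from 0.129 to 0.372, the latter with the replicate block. That in alpha share ran from -1.86 to -0.617 percentage points, the latter with the unstranded column. Neither the GC content and length offsets nor the surrogate variable was applied to the total or the shares, so these ranges do not cover them.

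Labels share the numbers 2 and 3 between the groups. Deviations of same-numbered libraries correlated at -0.4 for number 2 and 0.173 for number 3. Over all pairs of an untreated and a relaxin-2 library the correlations ran from -0.498 to 0.564. So few correlations cannot show what the numbers mark, and the main test left the libraries unpaired. With the replicate block 1 gene and 0 members were called, the median member was 0.349, and the difference in TUBB3 share was -0.00196 percentage points. Only numbers 2 and 3 occur in both groups, so untreated replicate 4 and relaxin-2 replicate 1 do not inform these differences. Untreated replicate 2 does. Uniquely mappable length in a genome was not run. TUBB3 and TUBB4A, with 21 to 53 reads, are limited by depth.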
